A study of Mus musculus with 9 samples.

Results

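Integrins and laminins were followed through 9 libraries of D2.0R, a mouse mammary adenocarcinoma cell line whose cells can stay dormant after they spread. The family was taken by gene symbol: every row of the count table named as an integrin alpha or beta chain (27 genes, with the integrin-like Itgbl1 left out) or as a laminin alpha, beta or gamma chain (11 genes). That gave 38 of 55492 genes. The cells were stained with CellTrace Far Red (CTFR), a dye that thins out with every division, grown for 1 week in DMEM with 2% FBS (their stocks were kept in 10% FBS) and sorted into cells that had kept the dye and cells that had lost it. The series studies how natural killer cells act on dormant breast cancer cells, and all 9 libraries share line, medium and time.

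By the labels the 9 samples are of 3 kinds (cells that kept the CTFR dye, bulk cells and cells that lost it), but 0 of the 9 libraries are tied to a kind. Libraries therefore carry their title number here, none is called quiescent or proliferating, and values are given one by one with no mean or SD. Title numbers are read in runs of 3 (1 to 3, 4 to 6, 7 to 9). The sources used here do not say what a run or a place in it stands for, nor whether libraries came from separate cultures, so a difference between libraries may be biological or technical.

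Integrins are receptors made of 1 alpha and 1 beta chain that tie the cell's actin skeleton to the matrix around it. The alpha chain largely sets the ligand: collagen, laminin, or proteins with the short RGD motif such as fibronectin and vitronectin. Laminins are trimers of an alpha, a beta and a gamma chain and form the sheet of basement membranes on which epithelial, muscle and endothelial cells rest. Signalling through integrin beta 1 has been studied as a switch between dormancy and growth in lines of this kind.

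CPM are read counts scaled to library size, with TMM factors in the printed values and library totals alone in the filter. Of the 38 genes, 27 reached a mean of 1 CPM and are called measured here, 19 of them integrins and 8 laminins. The other 11 were Itga2, Itga4, Itgae, Itgal, Itgam, Itgax, Itgb2l, Itgb6, Lama1, Lamb3 and Lamc3, none above 0.594 CPM in any library (Lamb3, library 5). Itgb2l had 0 counts in all 9 libraries. Lama1 encodes the alpha chain of the classical laminin of early embryos, Itgb6 a beta chain of epithelia, and Lamb3 the beta chain of the laminin that anchors epidermis.

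The totals ran from 18732737 to 41243036 counts per library, so that 1 CPM stood for 18.4 to 40.1 counts, and a floor of 3 counts for 0.0748 to 0.163 CPM. Mki67, a marker of dividing cells, was 63.5, 107 and 149 CPM in libraries 2, 5 and 8 and at most 28.3 CPM (library 7) in the others. Of 8 mammary epithelial markers 3 were measured (Krt8, Krt18 and Cdh1). The other 5 stayed at or below 1.31 CPM in every library, and Epcam among them at or below 0.218 CPM. All 8 mesenchymal markers were measured. Of the 8 mesenchymal markers 5 (Vim, Col1a1, Col3a1, S100a4 and Acta2) had libraries 2, 5 and 8 as their 3 highest. The share over all measured genes was 20.0%. Pdgfra, Pdgfrb and Fn1 did not have this set, and Fn1 was lowest in library 8. Of the 3 measured epithelial markers the keratin gene Krt8 had it, and Krt18 and Cdh1 did not. None of 10 leukocyte markers was measured.

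A gene was called variable when a chi-square test of dispersion put its 9 counts beyond counting noise (Benjamini-Hochberg adjusted p under 0.05) and its range over the libraries was at least 2-fold. Of the 27 measured genes 18 were variable, against 27.3% of all 12330 measured genes. The dispersion test alone was passed by all 27, and by 96.0% of all genes, so that the 2-fold range decides most calls. The median range was 1.41 on the log2 scale over the 27 genes and 0.67 over all measured genes. Among integrins 14 of 19 were variable and among laminins 4 of 8, among them Lama2, Lama3 and Lama4. The 9 that were not are Itga3, Itga5, Itga7, Itgav, Itgb1, Lama5, Lamb1, Lamb2 and Lamc1.

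**Figure D1:**
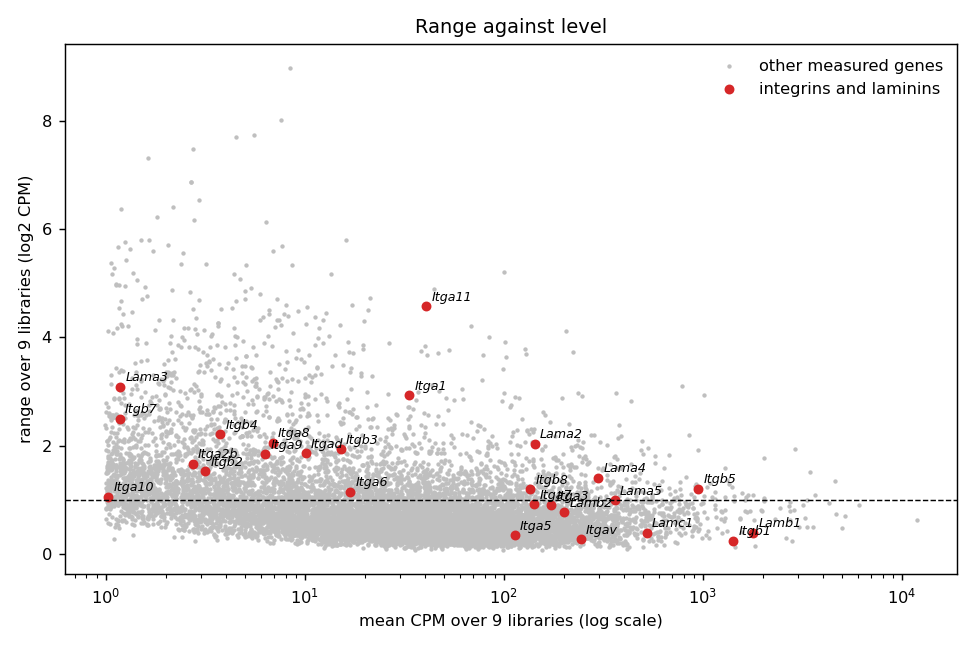
Range over the 9 libraries (log2 CPM, vertical) against mean CPM (horizontal, log scale) for all measured genes (grey) and the measured integrin and laminin genes described here (red, named); the dashed line marks 2-fold. Itga11 stands highest of the family at 4.58, and Itgb1, Itgav and Itga5 lie lowest, at 0.25, 0.27 and 0.35.

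**Figure D2:**
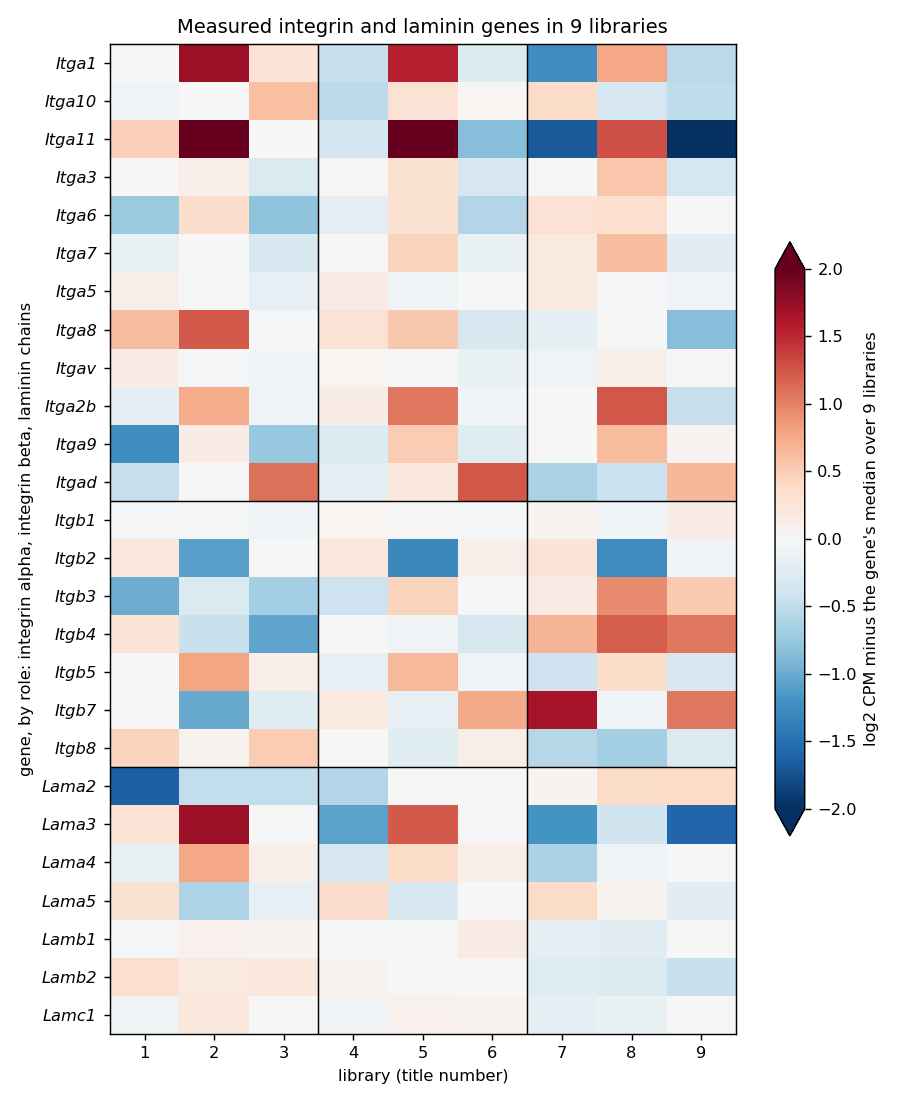
Each row is a measured gene described here and each column a library in title order, with vertical lines between runs of 3; colour gives log2 CPM (no prior count) minus the gene's median over the 9 libraries, and colours end at 2 in either direction. Itga1, Itga11 and Lama3 are red in libraries 2 and 5, Itgad is red in libraries 3, 6 and 9, Itgb2 blue in libraries 2, 5 and 8, and Itgb1, Itgav and Itga5 are pale throughout.

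Among the collagen receptor chains, Itga11 had the widest range of the 27 measured members (log2 4.58), Itga1 came after Itga11 and Lama3 (2.93), and Itga10 lay near the 2-fold threshold (1.06). Itga11 encodes the alpha chain of the receptor for fibrillar collagen found on fibroblasts and other mesenchymal cells. It lies on chromosome 9 at 62677826 to 62783982 (ENSMUSG00000032243; all gene coordinates are on GRCm38). It stood at 31.3, 118 and 22.4 CPM in libraries 1 to 3, 17.4, 96.8 and 12.5 CPM in libraries 4 to 6 and 6.96, 54.6 and 4.89 CPM in libraries 7 to 9. The middle library of each run was the highest. Libraries 2, 5 and 8 lay above the other 6 with no overlap, which holds for 20.0% of measured genes. Runs also fell in title order at every place. Library 2 exceeded library 9 by 24.2-fold (95% interval 19.6 to 30.1; intervals here and elsewhere cover counting error only), a range wider than that of 99.5% of measured genes.

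Itga1, the alpha chain of a receptor for collagen IV and collagen I, lies on chromosome 13 at 114953096 to 115101964 (ENSMUSG00000042284). It measured 23.6, 76.8 and 28.5 CPM in libraries 1 to 3, 17.4, 68.2 and 19.4 CPM in libraries 4 to 6 and 10.00, 40.4 and 16.2 CPM in libraries 7 to 9. Libraries 2, 5 and 8 were again the 3 highest, and library 2 exceeded library 7 by 7.68-fold (6.92 to 8.56). Without library 7 the log2 range of Itga1 was 2.24 in place of 2.93. The gene Pelo lies inside Itga1 on the same strand, without shared exons, and ranged only from 17.7 to 32.1 CPM. Gm49395, which does share exon positions with Itga1 on the same strand, reached at most 0.774 CPM. Itga10, a collagen receptor chain of cartilage, was close to the threshold, at 0.969, 1.00 and 1.52 CPM in libraries 1 to 3, 0.697, 1.22 and 1.04 CPM in libraries 4 to 6 and 1.3, 0.791 and 0.706 CPM in libraries 7 to 9, a 2.18-fold range (1.29 to 3.79; dispersion test with Benjamini-Hochberg adjustment, adjusted p = 0.0173). Its call was lost without library 4, and with library 3, 5 or 7 left out it was no longer measured. Itga2, the other collagen-binding alpha chain, reached at most 0.299 CPM.

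**Figure D3:**
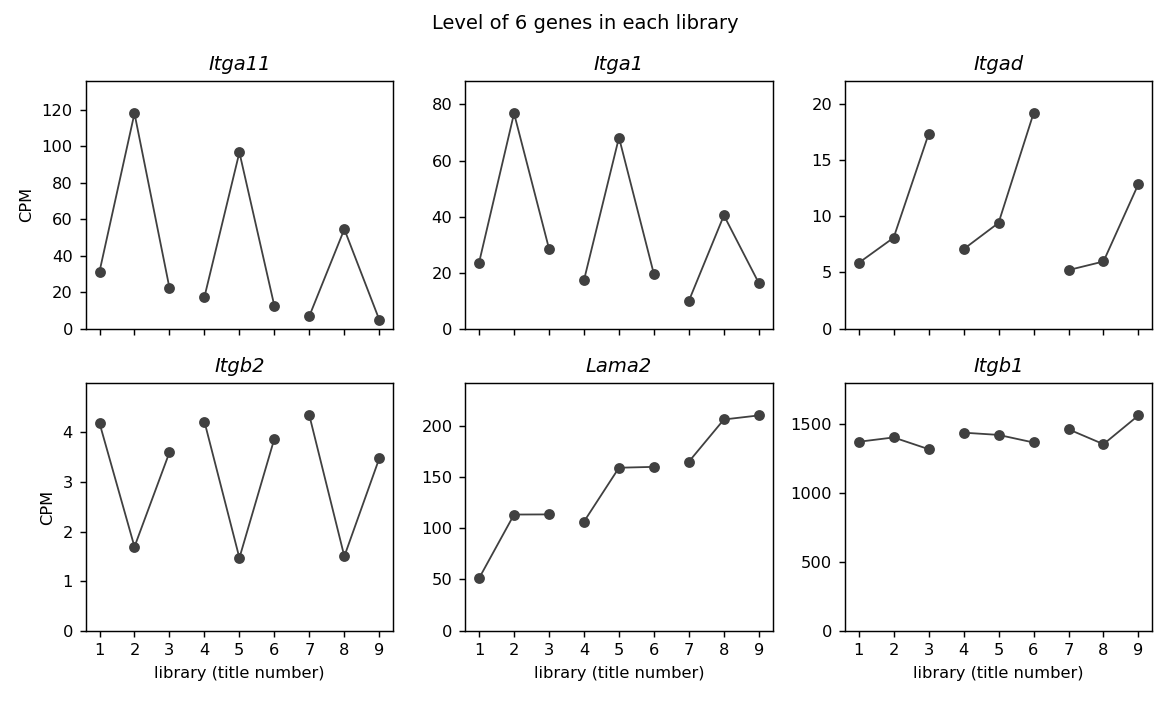
CPM (vertical, linear from 0) of 6 genes in each of the 9 libraries (horizontal, title number); lines join the 3 libraries of a run and stand for no order in time. Itga11 and Itga1 peak in libraries 2, 5 and 8, Itgad in 3, 6 and 9, Itgb2 dips in 2, 5 and 8, Lama2 climbs from 51.2 to 209.9 CPM, and Itgb1 stays between 1320.0 and 1565 CPM.

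Among the beta chains Itgb5, which pairs with the alpha V chain in a vitronectin receptor, ordered the 9 libraries exactly as Itga1 did (2, 5, 8, 3, 1, 6, 4, 9, 7). That identity was noticed after the values were seen, and 0.260% of all measured genes have the same order. Itgb5 (ENSMUSG00000022817, chromosome 16 at 33829665 to 33949338) measured 843, 1456 and 923 CPM in libraries 1 to 3, 755, 1325 and 807 CPM in libraries 4 to 6 and 633, 1084 and 671 CPM in libraries 7 to 9. Its range of 2.3-fold (2.27 to 2.34) was much narrower than that of Itga11 or Itga1. From second highest to second lowest library the range was 0.98 on the log2 scale, short of 2-fold.

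Itgb1, the beta chain that most alpha chains pair with, was the steadiest member. It lies on chromosome 8 at 128685654 to 128733200 (ENSMUSG00000025809). Its level was 1374, 1405 and 1320.0 CPM in libraries 1 to 3, 1439.9, 1424 and 1368 CPM in libraries 4 to 6 and 1465, 1356 and 1565 CPM in libraries 7 to 9. The highest and lowest library differed by 1.19-fold (1.17 to 1.20), and only 4.64% of measured genes had a narrower range. Itga11, Itga1 and Itga10 all form receptors with this chain.

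The promoters of Itga11, Itga1, Itgb5 and Itgb1 are shown because the first 3 share the high libraries 2, 5 and 8 and Itgb1 does not. Each is the 300 bases from 250 before to 50 after the RefSeq start site (GRCm38.p6), 5′ to 3′ on the gene's own strand. Capitals mark matches, on either strand, to any of 7 short motifs. TEAD factors, which act in the Hippo pathway, bind GGAATG. AP-1, a transcription factor that responds to stress and growth signals, binds TGANTCA. SP1, a general activator, binds GGGCGG. The box that places many start sites is TATAAA. Factors such as Myc bind the E-box CACGTG. SMAD proteins, which carry TGF-beta signals, bind CAGAC. Members of the ETS family bind CCGGAAG.
Itga11, chr9:62677605-62677904, plus strand: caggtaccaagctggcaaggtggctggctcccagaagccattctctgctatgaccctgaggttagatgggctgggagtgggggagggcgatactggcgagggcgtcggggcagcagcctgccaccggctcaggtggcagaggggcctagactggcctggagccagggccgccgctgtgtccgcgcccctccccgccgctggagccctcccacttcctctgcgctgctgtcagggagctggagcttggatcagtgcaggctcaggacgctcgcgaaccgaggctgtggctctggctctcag
Itga1, chr13:115101915-115102214, minus strand: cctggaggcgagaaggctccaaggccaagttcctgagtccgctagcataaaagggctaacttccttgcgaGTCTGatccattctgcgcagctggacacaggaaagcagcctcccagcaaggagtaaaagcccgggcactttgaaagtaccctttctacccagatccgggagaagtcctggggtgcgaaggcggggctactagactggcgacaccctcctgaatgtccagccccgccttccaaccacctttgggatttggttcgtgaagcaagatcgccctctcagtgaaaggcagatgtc
Itgb5, chr16:33829415-33829714, plus strand: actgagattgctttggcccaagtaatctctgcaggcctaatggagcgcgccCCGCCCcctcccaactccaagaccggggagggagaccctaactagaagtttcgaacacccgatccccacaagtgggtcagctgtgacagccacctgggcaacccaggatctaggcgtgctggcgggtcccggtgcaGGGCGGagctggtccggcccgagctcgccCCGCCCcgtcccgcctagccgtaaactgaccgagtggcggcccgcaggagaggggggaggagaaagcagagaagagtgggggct
Itgb1, chr8:128685404-128685703, plus strand: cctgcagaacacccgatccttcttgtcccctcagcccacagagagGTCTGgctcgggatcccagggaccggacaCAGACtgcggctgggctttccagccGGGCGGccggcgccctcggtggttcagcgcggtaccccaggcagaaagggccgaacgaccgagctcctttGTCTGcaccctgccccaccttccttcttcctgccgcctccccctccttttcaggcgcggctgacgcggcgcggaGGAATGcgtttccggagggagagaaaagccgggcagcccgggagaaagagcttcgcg

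Itga11 held none of the 7 letter strings in this window, and Itga1 held 1, a CAGAC match at position -180 (the first base transcribed is +1). Itgb5 held 3 matches to GGGCGG, at -199, -63 and -34. Itgb1 held GGGCGG at -151, GGAATG at -7 and CAGAC at -205, -176 and -81. None of the printed matches overlaps another. Such short strings are common: of 32851 promoters of the same length 35.7% hold the SP1 motif, 49.6% the SMAD, 14.7% the TEAD, 13.6% the TATA, 8.86% the ETS, 7.81% the AP-1 and 7.15% the E-box motif. Sequences were found for 24 of the 38 members, 17 of them measured. The base composition was 68.0% GC in Itga11, 67.3% in Itgb1, 65.7% in Itgb5 and 56.7% in Itga1.

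The laminin-binding alpha chains moved less than Itga11 and Itga1. Itga3, a laminin receptor chain of epithelial cells, stood at 169.6, 181 and 138 CPM in libraries 1 to 3, 172, 211 and 135 CPM in libraries 4 to 6 and 168, 249 and 133 CPM in libraries 7 to 9. Libraries 2, 5 and 8 were the highest and 3, 6 and 9 the lowest, but the range of 1.87-fold (1.79 to 1.96) stayed under the threshold. Itga7, known as the laminin receptor of muscle, ran from 109 CPM in library 3 through a median of 134 to 206 CPM in library 8, or 1.90-fold. Itga6, a laminin receptor chain often used to mark mammary progenitors, was variable at a lower level, with 10.4, 22.3 and 10.00 CPM in libraries 1 to 3, 15.4, 21.4 and 11.6 CPM in libraries 4 to 6 and 21.2, 22.1 and 17.4 CPM in libraries 7 to 9. Its 3 highest libraries were 2, 8 and 5, with library 7 close behind.

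Itgb4 pairs with the alpha 6 chain in the hemidesmosomes of epithelia. It measured 3.67, 2.21 and 1.46 CPM in libraries 1 to 3, 3.02, 2.87 and 2.41 CPM in libraries 4 to 6 and 4.84, 7.01 and 6.30 CPM in libraries 7 to 9. Libraries 7 to 9 held the 3 highest values, and library 8 exceeded library 3 by 4.80-fold (3.55 to 6.60). Without library 3 the log2 range of Itgb4 was 1.64 in place of 2.22. The order differed from that of Itga6.

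Among RGD-binding chains the abundant ones were steady. Itgav, the alpha V chain, stood at 269.6, 235 and 233 CPM in libraries 1 to 3, 249, 244 and 223 CPM in libraries 4 to 6 and 228, 261 and 243 CPM in libraries 7 to 9, a range of 1.21-fold (1.17 to 1.25). Itga5, the alpha chain of the main fibronectin receptor, stood at 122, 112 and 99.8 CPM in libraries 1 to 3, 125, 105 and 112 CPM in libraries 4 to 6 and 127, 109 and 106 CPM in libraries 7 to 9, or 1.27-fold (1.22 to 1.33). For Itga5 the first library of each run was the highest, by little. Fn1, which encodes its ligand fibronectin, was also highest in libraries 1, 4 and 7 (14569, 14296 and 12710.4 CPM) and lowest in library 8 (9468 CPM), a range under 2-fold.

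Itga8, a receptor chain for nephronectin that is known from kidney development and smooth muscle, was scarce and variable. It ran at 8.82, 13.5 and 5.64 CPM in libraries 1 to 3, 7.03, 8.35 and 4.63 CPM in libraries 4 to 6 and 5.04, 5.76 and 3.20 CPM in libraries 7 to 9. As in Itga11, the middle library was the highest of each run, the last the lowest, and runs fell in title order, with a fold of 4.21 (3.20 to 5.61) between libraries 2 and 9. Its log2 range of 2.05 was 1.43 without library 2, and from second highest to second lowest library it was 0.92, which ends the call.

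The other partners of alpha V moved apart from one another. Itgb3, the beta chain of the vitronectin receptor of osteoclasts and of the platelet fibrinogen receptor, stood at 7.16, 11.6 and 8.87 CPM in libraries 1 to 3, 10.7, 19.4 and 14.3 CPM in libraries 4 to 6 and 16.0, 27.6 and 20.4 CPM in libraries 7 to 9. The middle library was highest in each run, as for Itgb5, but runs rose in title order where those of Itgb5 fell. Library 8 exceeded library 1 by 3.85-fold (3.31 to 4.49). Itgb8, whose product binds latent TGF-beta together with alpha V, measured 187, 144 and 195 CPM in libraries 1 to 3, 137, 116 and 149 CPM in libraries 4 to 6 and 92.0, 85.4 and 112 CPM in libraries 7 to 9. Here the middle library was the lowest of each run, and the fall between runs gave 2.29-fold (2.19 to 2.38) between libraries 3 and 8.

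Itga2b, the platelet partner of Itgb3, was present at low level, with 1.83, 3.50 and 1.99 CPM in libraries 1 to 3, 2.32, 4.33 and 2.01 CPM in libraries 4 to 6 and 2.09, 4.97 and 1.52 CPM in libraries 7 to 9. Libraries 8, 5 and 2 were the highest. Of 9 platelet and endothelial markers 3 were measured (Gp1ba, Vwf and Egfl7), and their summed level over the list lay between 11.0 and 17.2 CPM. The platelet gene Pf4 and the endothelial gene Cdh5 had 0 counts. Of these 3 markers none had libraries 2, 5 and 8 as its 3 highest, and Vwf had them as its 3 lowest. Itga9, a receptor chain for tenascin C and osteopontin, measured 2.73, 7.14 and 3.82 CPM in libraries 1 to 3, 5.34, 9.19 and 5.43 CPM in libraries 4 to 6 and 6.43, 9.98 and 6.68 CPM in libraries 7 to 9, or 3.65-fold (2.86 to 4.72) between libraries 8 and 1. Its order of runs was that of Itgb3.

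Of the 5 alpha chains known from leukocytes only Itgad was measured. Itgad, the alpha D chain of macrophages, lies on chromosome 7 at 128154376 to 128223816 (ENSMUSG00000070369). It stood at 5.85, 8.09 and 17.3 CPM in libraries 1 to 3, 7.07, 9.40 and 19.1 CPM in libraries 4 to 6 and 5.21, 5.97 and 12.9 CPM in libraries 7 to 9. The last library of each run was the highest, so that libraries 3, 6 and 9 stood above the other 6 without overlap, which holds for 4.34% of measured genes. Library 6 exceeded library 7 by 3.67-fold (3.14 to 4.32). Cox6a2, which shares exon positions with Itgad on the other strand, reached at most 0.588 CPM; without a stated strand setting, reads of such partners cannot be told apart.

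Itgb2, the beta chain that Itgad pairs with, took another course. It stood at 4.19, 1.69 and 3.59 CPM in libraries 1 to 3, 4.21, 1.47 and 3.87 CPM in libraries 4 to 6 and 4.34, 1.5 and 3.47 CPM in libraries 7 to 9. It was the one measured member whose 3 lowest libraries were 2, 5 and 8, a pattern of 20.0% of measured genes, and its range was 2.96-fold (2.10 to 4.24). Itgb7, a beta chain of gut-homing lymphocytes, varied 6.32-fold (3.67 to 11.7). Its values were 0.865, 0.430 and 0.730 CPM in libraries 1 to 3, 0.995, 0.769 and 1.46 CPM in libraries 4 to 6 and 2.72, 0.818 and 1.79 CPM in libraries 7 to 9. Without library 2 the log2 range of Itgb7 was 1.78 in place of 2.50, and without library 7 it was no longer measured.

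The other leukocyte alpha chains Itgae, Itgal, Itgam and Itgax stayed at or below 0.373 CPM (Itgal, library 2). The 10 leukocyte markers summed to between 0.150 and 0.464 CPM per library, Ptprc, which encodes CD45, peaked at 0.109 CPM, and Ncr1, Nkg7 and Cd52 had 0 counts. Itgad and Itgb2 were thus found in libraries in which the defining leukocyte markers lay at or near 0.

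Laminin alpha chains differed from each other in order. Lama4, the alpha chain of a laminin of vessels and mesenchyme, measured 255, 483 and 308 CPM in libraries 1 to 3, 225, 366 and 312 CPM in libraries 4 to 6 and 182, 267 and 283 CPM in libraries 7 to 9. The first library of each run was the lowest, and library 2 exceeded library 7 by 2.66-fold (2.58 to 2.73). From second highest to second lowest library the log2 range was 0.70, which ends the call. Lama5, the alpha chain of the most widespread adult laminin, ran the other way, with 442, 231 and 317 CPM in libraries 1 to 3, 457, 288 and 356 CPM in libraries 4 to 6 and 461, 376 and 306 CPM in libraries 7 to 9. The first library of each run was the highest. At 1.99-fold (1.94 to 2.04) it lay just under the threshold.

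Lama2, the alpha chain of the laminin around muscle and nerve, followed the runs. Its levels were 51.2, 113 and 113 CPM in libraries 1 to 3, 106, 159 and 159.7 CPM in libraries 4 to 6 and 165, 206 and 209.9 CPM in libraries 7 to 9. Runs rose in title order at each place, and in each run the first library was the lowest. Library 9 exceeded library 1 by 4.10-fold (3.86 to 4.36), but without library 1 the log2 range was 0.98, short of 2-fold. Lama3, a chain of epithelial laminins, was near the floor of measurement and still varied 9.95-fold (4.43 to 27.7), with 1.18, 3.24 and 0.983 CPM in libraries 1 to 3, 0.465, 2.27 and 0.975 CPM in libraries 4 to 6 and 0.424, 0.737 and 0.326 CPM in libraries 7 to 9. Its lowest value rested on 6 counts, and without library 2 it was no longer measured.

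The beta and gamma chains that complete the trimers were steadier. Lamb1, the beta 1 chain, stood at 1758, 1908 and 1873 CPM in libraries 1 to 3, 1772, 1797 and 2017 CPM in libraries 4 to 6 and 1573, 1542 and 1815 CPM in libraries 7 to 9, a 1.31-fold range (1.29 to 1.32). Lamc1, the gamma 1 chain shared by most laminins, stood at 492, 605 and 523 CPM in libraries 1 to 3, 502, 553 and 547 CPM in libraries 4 to 6 and 460.1, 476 and 525 CPM in libraries 7 to 9, or 1.31-fold (1.29 to 1.34). Both were lowest in libraries 7 and 8. Lamb2, the beta chain of synaptic and kidney laminins, fell from 251 CPM in library 1 through a median of 200.3 to 148 CPM in library 9. For Lamb2 libraries 1 to 3 were the 3 highest and libraries 7 to 9 the 3 lowest.

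Levels of different genes were compared only after division by exon length, scaled to the same sum over all genes in each library. On that scale Itgb1 was the most abundant member (median 1234 over the 9 libraries), followed by Itgb5 (849.7), Lamb1 (657) and Lamc1 (228). Itgb1 supplied 44.7% (library 2) to 65.1% (library 9) of the beta chain level and Itgb5 32.1% to 53.2%. Itgb1 was the largest in 7 libraries, and Itgb5 in libraries 2 and 5. Itgb8 added at most 2.92%. These are shares of mRNA, not of protein.

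No alpha chain dominated. By median share Itga3 supplied 27.5%, Itga5 23.2%, Itgav 22.0% and Itga7 15.8% of the alpha chain level. Itga3 was the largest in all 9 libraries with exon unions as lengths, but in only 3 with the longest transcript, where Itgav was the largest in 4 and Itga7 in 2. Itga11 went from 1.06% in library 9 to 18.0% in library 2 and 14.1% in library 5. In library 2 Itgav and Itga5 held 17.1% and 17.7% by exon union. With the longest transcript Itga11 reached at most 13.8%, while Itgav held at least 18.7% in every library.

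The make-up of the laminin alpha chains shifted as well. Lama5 held 61.4% in library 1, 61.4% in library 4 and 61.6% in library 7, but 30.1% in library 2, where Lama4 held 59.2%. In library 5 Lama4 also exceeded Lama5, at 46.3% against 38.5%. Lama2 rose from 4.95% in library 1 to 20.3% in library 9. Which of Lama5 and Lama4 was larger depends on the length used: Lama5 was the largest in 7 libraries by exon union and in 2 by longest transcript. By exon union Lamb1 held 81.1% to 88.3% of the beta chain level and Lamc1 99.16% to 99.70% of the gamma chain level. With the longest transcript Lamc1 held at least 98.8%. The transcripts at hand were thus mainly those of beta 1 and gamma 1.

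**Figure D4:**
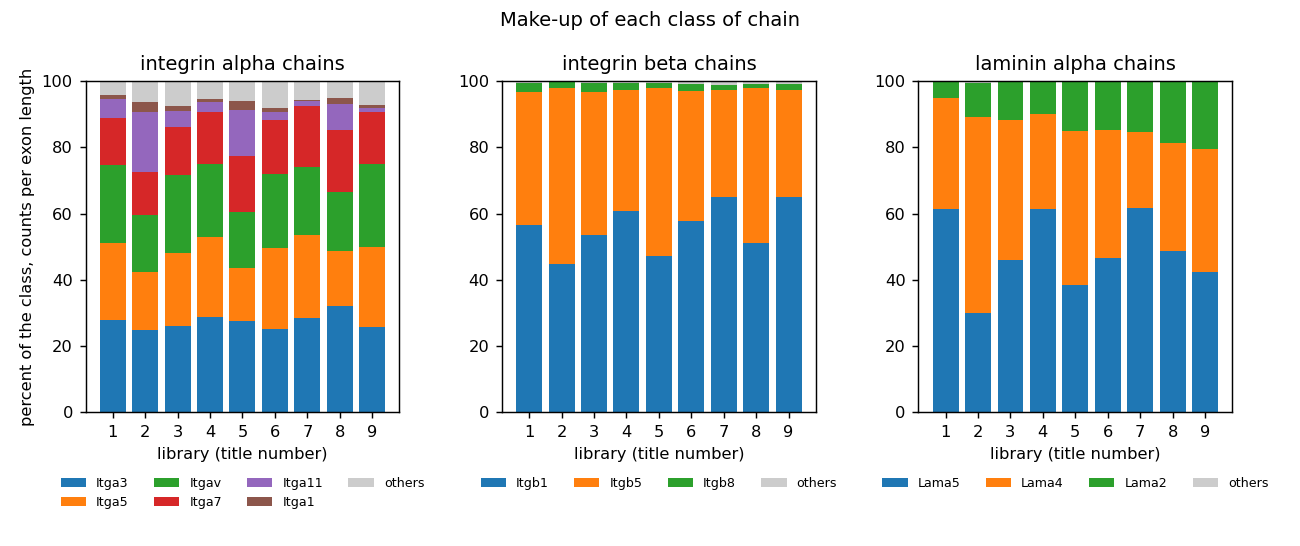
Stacked bars give, for each library (title number), the percent that each gene holds of the summed level per exon length of its class: integrin alpha, integrin beta and laminin alpha chains. Itga11 swells in libraries 2 and 5 (18.0% and 14.1%), Itgb5 exceeds Itgb1 in libraries 2 and 5, and Lama4 exceeds Lama5 in libraries 2 and 5.

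Counted over the family, the middle library was the highest of each run in 11 of the 27 measured genes, against 30.1% of all measured genes, and the lowest of each run in 3 (Itgb2, Itgb7 and Itgb8), against 29.2%. Libraries 2, 5 and 8 were the 3 highest in 7 genes (Itga1, Itga11, Itga2b, Itga3, Itga6, Itga9 and Itgb5), against 20.0% of all. With 27 genes, 7 are 25.9%, close to that share. Libraries 1, 4 and 7 were the 3 highest in Itga5, Itgb2 and Lama5 (7.06% of all genes) and the 3 lowest in Lama4 (4.18%), and libraries 3, 6 and 9 were the 3 lowest in Itga3 (4.10%). Libraries 7 to 9 were the 3 highest in 3 genes, among them Itgb4 and Lama2 (3.22%), and the 3 lowest in Itgb8 and Lamb2 (4.28%), while libraries 1 to 3 were the 3 highest in Lamb2 (3.83%) and the 3 lowest in none of the 27 (3.04%).

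Within runs, the first library was the highest each time in 4 genes (Itga5, Itgb2, Lama5 and Lamb2; 17.2% of all) and the lowest in 8 (10.9%), among them Itga1, Itgb5, Lama2 and Lama4. The last library was the highest each time in Itgad, Itgb8 and Lama2 (10.5%) and the lowest in 5 genes (13.3%). Runs fell in title order at each place in 7 genes (Itga1, Itga8, Itga11, Itgb5, Itgb8, Lama3 and Lamb2; 13.0% of all genes) and rose in 4 (Itga9, Itgb3, Itgb7 and Lama2; 14.1% of all). Mki67 had the same 3 highest libraries as the 7 genes of the first set. From library 2 to 5 to 8, however, Mki67 rose from 63.5 to 149 CPM, as did Itgb3, Itga2b, Itga3 and Itga9, whereas Itga11, Itga1 and Itgb5 fell. The mesenchymal markers Fn1, Pdgfra and Pdgfrb and the epithelial markers Krt18 and Cdh1 did not have libraries 2, 5 and 8 as their 3 highest. The 5 mesenchymal markers named above and Krt8 did. What part the share of dividing cells or of cells rich in these markers has in these levels was not tested, and in bulk RNA fewer cells of a type and less RNA per cell cannot be told apart.

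Beside the receptors, genes that bind or serve them were read from 3 lists. Of 24 integrin ligands and basement membrane partners 14 were measured and 9 were variable, against 27.3% of all measured genes, and the median of their log2 ranges was 1.06, where that of all genes was 0.67. Thbs1, the matrix protein thrombospondin 1, measured 658, 1489 and 608 CPM in libraries 1 to 3, 401, 1631 and 328 CPM in libraries 4 to 6 and 227, 1521 and 189.7 CPM in libraries 7 to 9, an 8.60-fold range (8.31 to 8.90). Its 3 highest libraries were 5, 8 and 2 and its 3 lowest 9, 7 and 6, the sets found for Itga11. Nid1, which links laminin to collagen IV, was scarce, from 0.242 CPM in library 1 to 1.70 CPM in library 7, with 0.846 CPM as the next lowest value (library 8). The collagen IV genes Col4a1 (0.484 to 1.29 CPM) and Col4a2 (0.380 to 1.16 CPM) lay near the level of Nid1. They narrowly missed the filter on the mean and so do not count as measured.

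Of 43 adaptors and focal adhesion genes 37 were measured and 8 were variable (Tln2, Zyx, Tes, Ptk2b, Tns1, Git1, Dab2 and Kank1), against 27.3% of all measured genes. Their log2 ranges had a median of 0.53, where that of all measured genes was 0.67, so both figures lie near the background. Tln1, whose talin switches integrins on, varied only 1.24-fold (585 to 722 CPM) and Fermt2, the kindlin that helps it, 1.33-fold (139.8 to 186 CPM). Tln2, the second talin, ran from 32.8 CPM in library 9 to 148 CPM in library 5, with libraries 5, 2 and 8 highest. Tns1, a tensin that binds beta chain tails, ran from 4.53 CPM in library 1 to 30.9 CPM in library 8, again highest in libraries 8, 5 and 2.

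Of 18 other laminin and matrix receptors 17 were measured and 3 were variable (Sdc3, Slc3a2 and Plaur), against 27.3% of all measured genes, with a median range of 0.77. Slc3a2 encodes a partner of beta 1 integrins and of amino acid transporters. It measured 239, 232 and 236 CPM in libraries 2, 5 and 8 and 487 to 629.6 CPM in the other 6. Libraries 2, 5 and 8, the 3 highest for Itga11, were thus its 3 lowest, as in 20.0% of measured genes. The order of the other 6 was not the reverse of that of Itga11. Plaur, the urokinase receptor, ran from 16.9 CPM in library 2 to 65.8 CPM in library 7.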

How the data were processed

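Poly(A) RNA of 9 libraries was analysed. The authors deposited 1 table of RSEM expected counts per gene, with no scaling. The counts were rounded to whole numbers before use. The submitters' processing notes name cutadapt 2.3, STAR 2.7.8a, RSEM 1.3.3 and GRCm38; for the annotation release and strand setting, the sources used here give nothing. No library could be tied to a sorted fraction, so no groups were formed. Each of the 36 pairs of libraries differed by more than counting noise.

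TMM factors came from edgeR 4.0.16 in R 4.3.3. A gene was measured when its mean reached 1 CPM by library totals, without TMM factors. The filter was set on the mean, since a minimum in every library would remove genes that are low in some. Log2 CPM used a prior count of 2. A chi-square test of dispersion, which was also run on simulated data, with Benjamini-Hochberg adjustment over 12330 genes, asked whether a gene's 9 counts varied beyond counting noise. Genes with an adjusted p under 0.05 and a range of at least 2-fold were called variable. Fold intervals are exact conditional binomial intervals (95%).

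Length-scaled levels used the union of exons in GENCODE M21 (GRCm38, 55141 of 55492 gene IDs), with the longest transcript as alternative. Named genes are all members called variable, 10 members listed whatever their values, and outside the family Mki67, Fn1, Tln1, Fermt2 and the 2 called genes of widest range in each of 3 lists. Pelo, Gm49395, single markers and further list genes were picked once their values were known. The values of 1 measured member, which stays in all counts, are not reported here. The members, lists and motifs were chosen with earlier results of these data known.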

Additional observations from a re-analysis of the deposited data

Results flagged for a closer look

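Of the 27 measured genes, 1 had a library set apart from the rest by more than Dixon's 95% critical value for 9 values (chance alone gives about 1 in 20). Lama2 in library 1, at 51.2 CPM, lay below the next lowest library by 0.518 of the whole range. The libraries are of unknown kind, so the ratio is a description only.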

How the results depend on the processing

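The count of variable integrin and laminin genes was 18 with RLE factors, totals alone, a prior count of 0.5 or a minimum in every library, 20 without a filter, 22 at 1.5-fold, 12 from second highest to second lowest library, and 16 to 18 with 1 library left out. Over all genes it was 6367 without a filter (23.5% of 27105), 1823 (14.8%) from second highest to second lowest library, and 7036 (57.1%) at 1.5-fold. Of the 18, 12 kept their call in every alternative in which they were measured; 6 lost it, among them Itga8, Itga10, Itgb5, Lama2 and Lama4 from second highest to second lowest library. With the longest transcript as length 9 of the 10 most abundant members per length were shared. No paired analysis was possible because the labels put no library in a group. Ranges of genes near 1 CPM, such as Lama3, Itgb7 and Itga10, are limited by depth.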
